A study of Drosophila melanogaster with 20 samples.

Results

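The 10 genes described here belong to the heat shock response and were followed in Drosophila SL2 cells, a line from embryos that resembles blood cells. They are the small heat shock genes Hsp22, Hsp23, Hsp26, Hsp27 and Hsp67Bc, the Hsp70-class gene Hsp68, the Hsp90 gene Hsp83, the co-chaperone genes DnaJ-1 and stv, and Hsf, the gene of their transcription factor. Members were found by gene symbol in the array's annotation. Of the 10 genes, 6 (Hsp26, Hsp27, Hsp68, DnaJ-1, stv and Hsf) had 1 probe set each that names that gene alone, out of 11982 named genes and 18769 probe sets. Hsp22 was named only on 2 probe sets that it shares with CG4456, a gene of the same cluster also known as Hsp67Bb, so their values are given for the pair and called the brighter and the dimmer Hsp22/CG4456 probe set. Hsp23, Hsp67Bc and Hsp83 were not analysed here, because no probe set carried those names. RNA was measured on Affymetrix Drosophila Genome 2.0 arrays in cells treated with dsRNA (double-stranded RNA) that targets SPS1, selenophosphate synthetase 1, and in untreated cells. There were 5 SPS1 dsRNA and 5 untreated samples at day 1, and 2 SPS1 dsRNA and 2 untreated samples at each of days 3 and 5. The study sought genes that respond directly or secondarily to loss of SPS1. The controls were given no dsRNA of any kind, so loss of SPS1 and exposure to dsRNA cannot be told apart.

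Heat shock proteins are chaperones that hold or refold damaged proteins. Under stress, Hsf forms trimers that bind heat shock elements and switch on the small heat shock genes, the Hsp70 genes and Hsp83, while J proteins and nucleotide exchange factors such as the product of stv (starvin, a BAG-family protein) drive the Hsp70 cycle. In Drosophila cell lines the same genes respond to heat, to unfolded protein and to several other kinds of stress, and in the animal some of the small ones also respond to ecdysone.

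All values are log2 expression values from robust multi-array average normalization (RMA), and a change is the SPS1 dsRNA mean minus the untreated mean on that scale. RMA compresses changes of weakly expressed genes, and the number of arrays limits the precision. Each day 3 group had a further technical array, which was averaged with biological replicate 2. The members differed by -0.21 to 0.24 between the technical array and that replicate. The 3′ actin control probes, set against the 5′ ones as a sign of RNA quality, were higher by 1.04 log2 units on the SPS1 dsRNA technical array and 1.24 on the untreated one, against 0.12 to 0.55 on the biological arrays. The source field of the day 5 SPS1 dsRNA samples reads as untreated, while their titles name the dsRNA, and the titles were used. No probe set carried the name of the targeted gene, so the knockdown was not measured by name. One library went against its label at 1 unnamed probe set, which was picked because it passed at day 1 once that library was left out: it measured 8.73 to 9.44 in the SPS1 dsRNA samples, against 9.46 in the library labelled untreated day 1 replicate 4 and 11.46 to 11.61 in the other untreated samples. Over the 6843 probe sets with a mean of at least 6, that library was the untreated day 1 sample nearest to its group. Its root mean square distance was 0.187, against 0.196 to 0.249 for the rest. Because of the 1 unnamed probe set, day 1 changes are also given without that library. The titles call the samples biological replicates, apart from the technical array of each day 3 group. They do not say that samples came from separate cultures or transfections. The p-values therefore measure only how far these samples spread, and that spread may be technical. Of 12 markers of plasmatocytes, the blood cell type that SL2 cells resemble, 3 (srp, drpr and crq) averaged at least 6 in untreated cells, and the defining markers Hml, Pxn, NimC1 and eater lay below that level.

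The 6 measured members were lower, on balance, in SPS1 dsRNA cells at days 3 and 5 and slightly higher at day 1. Their median change was 0.06 at day 1, -0.59 at day 3 and -0.35 at day 5, beside medians over all probe sets of 0.0014, 0.0018 and 0.015. At day 1 none of the 6 had a negative change, against 48.9% of all probe sets; without the library labelled untreated day 1 replicate 4 the median was 0.09 and 4 of 6 were positive. At day 3 all 6 had a negative change, against 49.4% of all probe sets, and at day 5 this held for 5 of 6, against 46.4% of all. Of the 6843 probe sets with a mean of at least 6, where 5 of the 6 members lie, 56.2% were lower at day 3 (median -0.02) and 62.7% at day 5 (median -0.08). In the limma fit of all 6 groups, with Benjamini-Hochberg adjustment over all probe sets, none of the 6 passed an adjusted p of 0.05 on any day. That fit called 0% of all probe sets at day 1, 0.176% at day 3 and 2.79% at day 5. Same-numbered samples of a day varied together, and a fit that takes each numbered pair of a day as a block gave 0 members at day 1, 2 at day 3 (Hsp27 and stv, both lower) and 1 at day 5 (DnaJ-1, lower), where it called 0%, 1.25% and 12.2% of all probe sets. The 2 of 6 at day 3 stand above that background share, and the 1 of 6 at day 5 lies near it. The members were chosen with earlier results of these data known, so a share above the background is no independent support. After cyclic loess, another scaling, the block called 0 members at day 3. The calls at day 3 rest on 2 pairs of samples. With pair 1 left out the block's changes were -0.92 for Hsp27 and -1.21 for stv. With pair 2 left out they were -0.50 and -0.54.

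**Figure D1:**
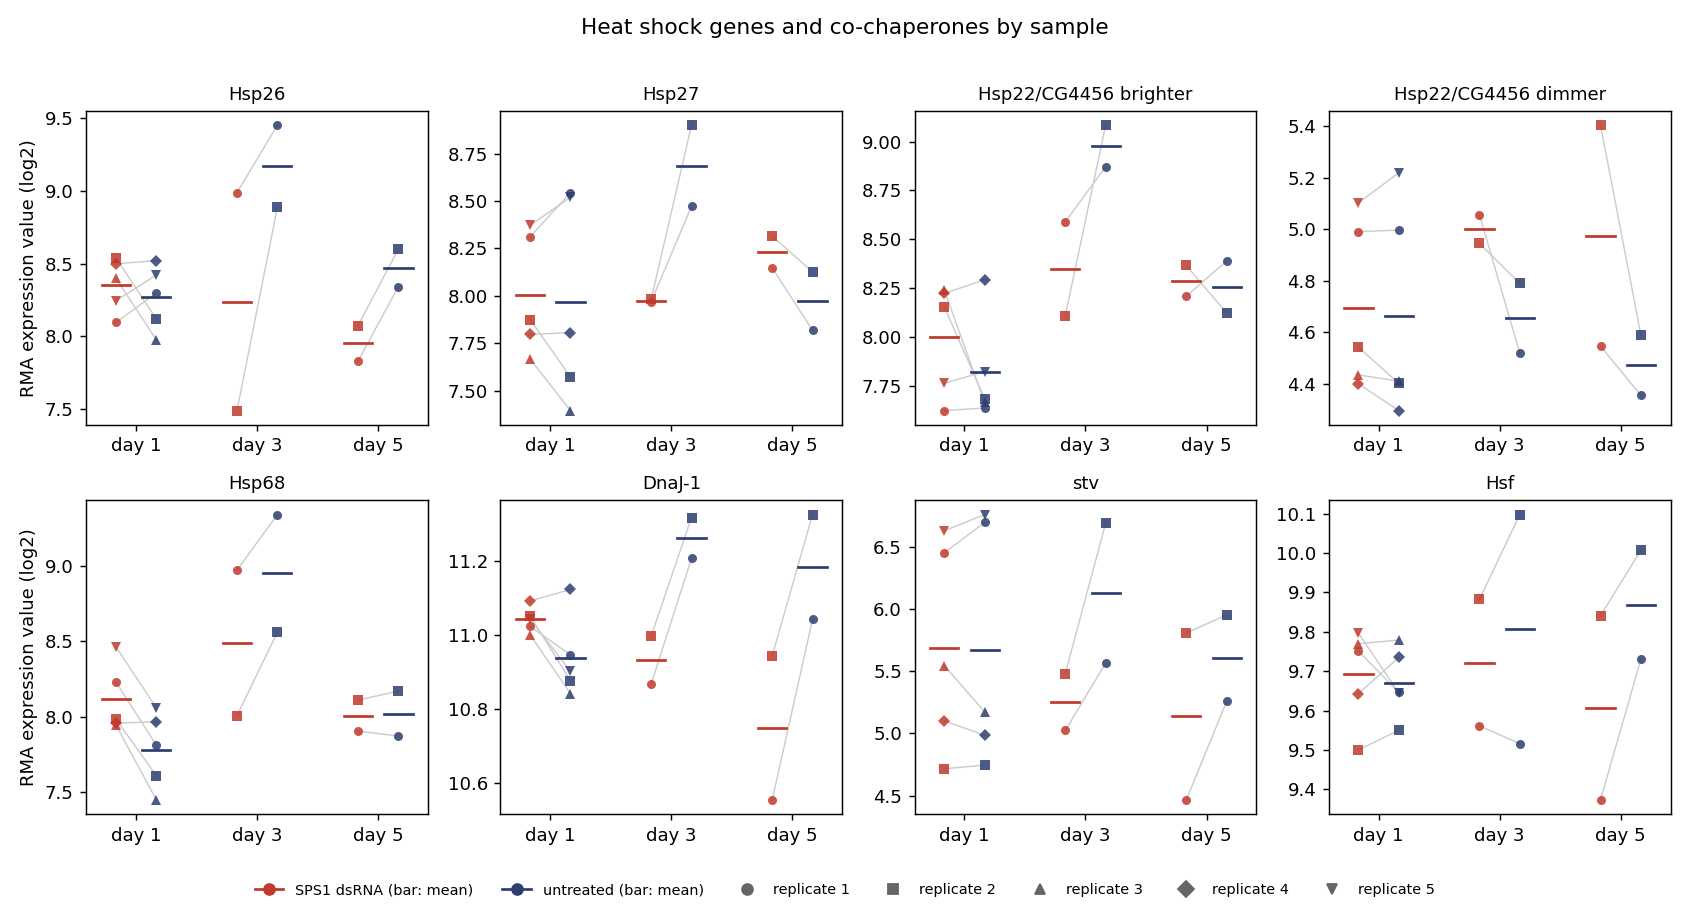
RMA expression value (log2, vertical axis; the scale differs between panels) of each sample for 6 members and the 2 probe sets shared by Hsp22 and CG4456, on days 1, 3 and 5, with SPS1 dsRNA samples in red left of untreated samples in blue. Symbols give the replicate number, bars are group means and grey lines join samples of the same number. At day 3 both lines climb toward untreated cells for Hsp26, Hsp27, Hsp68, DnaJ-1, stv and the brighter Hsp22/CG4456 probe set.

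The small heat shock genes Hsp26 and Hsp27, which encode chaperones that hold unfolded proteins without ATP, had the largest negative changes at day 3 together with stv. Hsp26 measured 8.99 and 7.49 in SPS1 dsRNA cells at day 3, against 9.45 and 8.89 in untreated cells. SPS1 dsRNA replicate 2 was far below the other 3 samples, and SPS1 dsRNA replicate 1 lay between the untreated values, so the groups overlapped. The change was -0.93 (SE 0.33), 1.90-fold lower, with an adjusted p of 0.895 in limma and 0.0524 with the block. It was -0.18 without SPS1 dsRNA day 3 replicate 2, and -1.68 without SPS1 dsRNA day 3 replicate 1. Each of these fits leaves 1 sample in that group. At day 5 Hsp26 measured 7.83 and 8.07 in SPS1 dsRNA cells, against 8.34 and 8.60 in untreated cells. Both SPS1 dsRNA samples were below both untreated samples, and the change of -0.52 (SE 0.33) had an adjusted p of 0.595 in limma and 0.128 with the block. At day 1 Hsp26 measured 8.10, 8.54, 8.40, 8.50 and 8.24 in SPS1 dsRNA replicates 1 to 5, against 8.30, 8.12, 7.98, 8.52 and 8.42 in untreated replicates 1 to 5. The day 1 groups overlapped over most of their range, with a change of 0.09 (SE 0.21), or 0.15 without the library labelled untreated day 1 replicate 4.

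Hsp27, a neighbour of Hsp26 in the small heat shock gene cluster, was lower at day 3 and higher at day 5. It measured 7.97 and 7.98 in SPS1 dsRNA cells at day 3, against 8.47 and 8.90 in untreated cells. The groups did not overlap, and the 2 SPS1 dsRNA values were nearly equal. The change of -0.71 (SE 0.33), 1.64-fold lower, had an adjusted p of 1 in limma and passed with the block, at 0.0297. With 1 day 3 pair left out the block gave -0.92 (without pair 1) and -0.50 (without pair 2). With both pairs its adjusted p was 0.0693 after cyclic loess. The day 1 change was 0.04 (SE 0.21), or -0.0040 without the library labelled untreated day 1 replicate 4. At day 5 Hsp27 measured 8.15 and 8.32 in SPS1 dsRNA cells, against 7.82 and 8.13 in untreated cells. The order of the groups was the opposite of day 3 in both pairs, with no overlap between groups. The day 5 change was 0.26 (SE 0.33), with an adjusted p of 0.856 in limma and 0.277 with the block. The day 5 change exceeded the day 3 change by 0.97 (SE 0.47), with an adjusted p of 1 in limma and 0.0364 with the block.

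The brighter probe set shared by Hsp22, a mitochondrial small heat shock protein gene, and CG4456 measured 8.59 and 8.11 in SPS1 dsRNA cells at day 3, against 8.87 and 9.08 in untreated cells. Both SPS1 dsRNA values were below both untreated values. The change was -0.63 (SE 0.23), 1.55-fold lower, with an adjusted p of 1 in limma and 0.197 with the block. At day 5 the probe set measured 8.21 and 8.37 in SPS1 dsRNA cells, against 8.39 and 8.12 in untreated cells. These groups overlapped, with a change of 0.03 (SE 0.23). The dimmer probe set of the same gene pair went the other way: it measured 5.06 and 4.95 in SPS1 dsRNA cells at day 3, against 4.52 and 4.79 in untreated cells, and 4.55 and 5.41 in SPS1 dsRNA cells at day 5, against 4.35 and 4.59 in untreated cells. Its change was 0.35 (SE 0.32) at day 3 and 0.50 (SE 0.32) at day 5, where the adjusted p was 0.595 in limma and 0.0303 with the block. Without the day 5 pair 2, the block gave a change of 0.19. With both pairs its adjusted p was 0.0744 after cyclic loess and 0.0514 after subtracting array medians. At day 1 the change was 0.18 (SE 0.15) on the brighter and 0.03 (SE 0.20) on the dimmer probe set, or 0.30 and -0.06 without the library labelled untreated day 1 replicate 4. The 2 probe sets thus disagreed in direction at day 3, and neither can be assigned to Hsp22 or to CG4456.

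Hsp68 encodes an inducible cytosolic chaperone of the Hsp70 class. It measured 8.97 and 8.01 in SPS1 dsRNA cells at day 3, against 9.34 and 8.56 in untreated cells. Replicate 1 was the higher sample in each group, the groups overlapped, and SPS1 dsRNA was lower within each pair. The change was -0.46 (SE 0.29), with an adjusted p of 1 in limma and 0.0825 with the block, and it lay between -0.94 (without SPS1 dsRNA day 3 replicate 1) and 0.02 (without SPS1 dsRNA day 3 replicate 2). At day 5 it measured 7.90 and 8.11 in SPS1 dsRNA cells, against 7.87 and 8.17 in untreated cells. The SPS1 dsRNA values lay inside the untreated range, with a change of -0.01 (SE 0.29) that was 0.08 under another scaling, cyclic loess. At day 1 Hsp68 measured 8.23, 7.98, 7.94, 7.96 and 8.46 in SPS1 dsRNA replicates 1 to 5, against 7.81, 7.61, 7.45, 7.96 and 8.06 in untreated replicates 1 to 5. It was higher in SPS1 dsRNA cells within 4 of 5 numbers, by 0.38 to 0.50, and equal to within 0.01 in number 4. That is the number of the library that went against its label at 1 unnamed probe set. The day 1 change of 0.34 (SE 0.18) was 0.38 without that library. Its adjusted p was 1 in limma and 0.669 with the block (unadjusted 0.0845 and 0.00047). From day 1 to day 3 the change dropped by 0.80 (SE 0.34), with an adjusted p of 1 in limma and 0.0345 with the block.

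DnaJ-1, also called Hsp40, encodes a J protein that delivers substrates to Hsp70. It measured 10.87 and 11.00 in SPS1 dsRNA cells at day 3, against 11.21 and 11.32 in untreated cells. At day 5 it measured 10.55 and 10.94 in SPS1 dsRNA cells, against 11.04 and 11.33 in untreated cells. SPS1 dsRNA values were below all untreated values on each of these days, and lower within every pair. The change at day 3 was -0.33 (SE 0.13), with an adjusted p of 1 in limma and 0.0712 with the block. At day 5 it was -0.44 (SE 0.13), 1.35-fold lower, with an adjusted p of 0.0877 in limma and 0.00328 with the block. It was -0.24 without SPS1 dsRNA day 5 replicate 1, the lowest sample, and -0.63 without SPS1 dsRNA day 5 replicate 2. The block gave -0.38 with the day 5 pair 1 left out and -0.49 with pair 2 left out.

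At day 1 DnaJ-1 had the narrowest spread of the 6 members in SPS1 dsRNA cells, at 11.02, 11.05, 11.00, 11.09 and 11.04 in replicates 1 to 5, against 10.95, 10.88, 10.84, 11.12 and 10.90 in untreated replicates 1 to 5. The library labelled untreated day 1 replicate 4 was the highest of all 10, and the other 4 untreated samples were below all 5 SPS1 dsRNA samples. The change was 0.10 (SE 0.08), or 0.15 without that library, with an adjusted p of 1 in both. The change at day 5 was below the change at day 1 by 0.54 (SE 0.15), with an adjusted p of 0.113 in limma and 0.00388 with the block.

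The gene stv encodes starvin, which works with Hsp70 and the small heat shock proteins in chaperone-assisted autophagy. It measured 5.02 and 5.48 in SPS1 dsRNA cells at day 3, against 5.56 and 6.69 in untreated cells. The groups did not overlap, and replicate 2 was the higher sample in each. The change of -0.87 (SE 0.72), 1.83-fold lower, had an adjusted p of 1 in limma. With the block it passed, at 0.0423, with a block SE of 0.18. The block gave -1.21 without day 3 pair 1 and -0.54 without pair 2. With both pairs its adjusted p was 0.051 after cyclic loess. Without the block the change ran from -1.44 (without untreated day 3 replicate 1) to -0.31 (without untreated day 3 replicate 2). At day 5 stv measured 4.46 and 5.81 in SPS1 dsRNA cells, against 5.26 and 5.95 in untreated cells. Replicate 1 of the SPS1 dsRNA cells was the lowest of these samples and the groups overlapped. The change of -0.47 (SE 0.72) had an adjusted p of 0.889 in limma and 0.13 with the block, and was 0.20 without SPS1 dsRNA day 5 replicate 1. The day 1 change was 0.02 (SE 0.46), or -0.16 without the library labelled untreated day 1 replicate 4.

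Hsf, which encodes the transcription factor itself, was close between groups. It measured 9.56 and 9.88 in SPS1 dsRNA cells at day 3, against 9.52 and 10.10 in untreated cells, with a change of -0.09 (SE 0.18). At day 5 it measured 9.37 and 9.84 in SPS1 dsRNA cells, against 9.73 and 10.01 in untreated cells. The groups overlapped on both days, and the day 5 change of -0.26 (SE 0.18) had an adjusted p of 0.647 in limma and 0.0952 with the block. Without SPS1 dsRNA day 5 replicate 1 it was -0.03. At day 1 Hsf ranged from 9.50 to 9.80 in SPS1 dsRNA cells, against 9.55 to 9.78 in untreated cells, with a change of 0.02 (SE 0.11), or 0.04 without the library labelled untreated day 1 replicate 4.

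**Figure D2:**
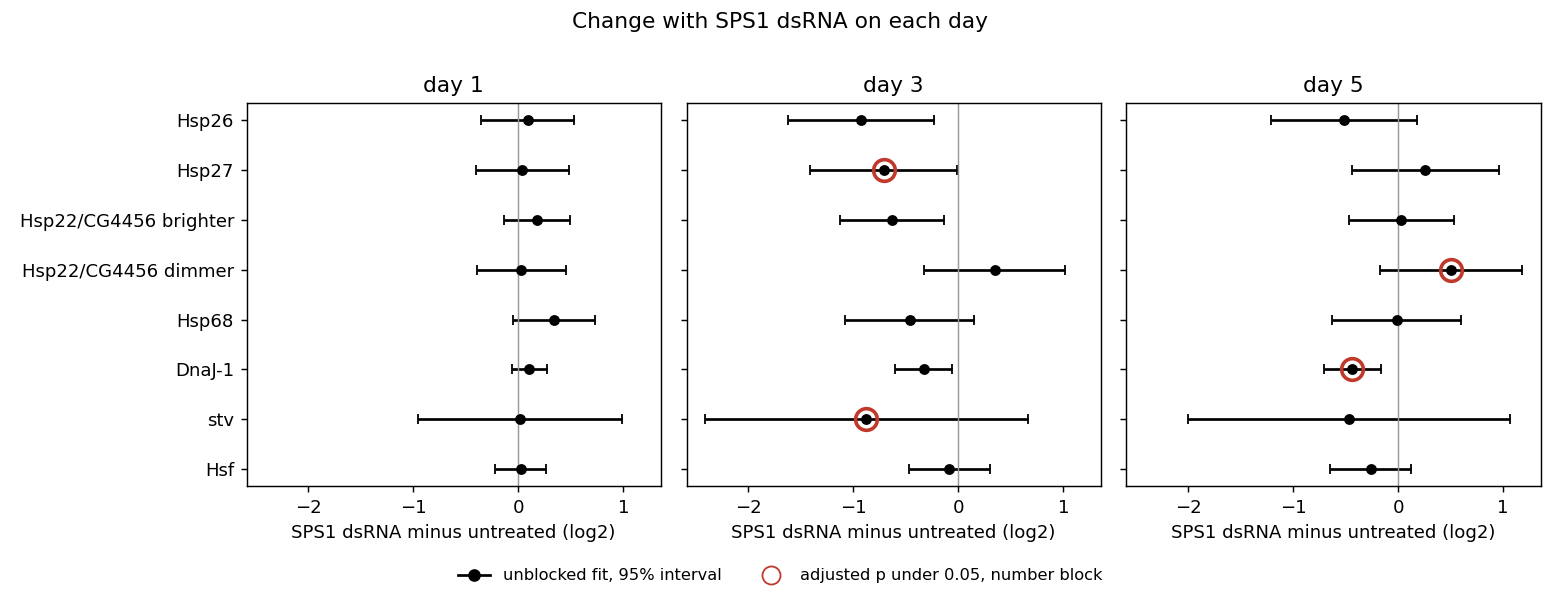
Change in log2 expression (SPS1 dsRNA minus untreated, horizontal axis) of the members on each day. Points and bars are estimates and 95% intervals of the limma fit without the block, and red circles mark adjusted p under 0.05 in the fit with replicate number as a block: Hsp27 and stv at day 3, and DnaJ-1 and the dimmer Hsp22/CG4456 probe set at day 5.

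The difference of these changes between days was tested as well. In the fit without the block no member differed between any days, where 0.0213% of all probe sets were called for day 3 against day 1, 1.4% for day 5 against day 1 and 0.0959% for day 5 against day 3. The block called 1 member in each: Hsp68 for day 3 against day 1, DnaJ-1 for day 5 against day 1 and Hsp27 for day 5 against day 3. It called 0.336%, 6.82% and 1.2% of all probe sets in these comparisons. By overlap of values, 3 of 6 members (Hsp27, DnaJ-1 and stv) had all SPS1 dsRNA samples below all untreated samples at day 3, against 12.2% of all probe sets, and 2 of 6 (Hsp26 and DnaJ-1) at day 5, against 17.5%.

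The untreated samples themselves had higher mean values of the 6 members at day 3 than at day 1. The labels do not link the replicate numbers of day 3 to those of day 1, so day and culture cannot be told apart. All 6 members had a positive difference, with a median of 0.59 against -0.0083 over all probe sets, and 0 of 6 were called in limma, where 0.107% of all probe sets were (20 probe sets, and 1195 at an unadjusted p under 0.05). The brighter Hsp22/CG4456 probe set did pass. It measured 8.87 and 9.08 in untreated cells at day 3, against 7.63, 7.68, 7.66, 8.29 and 7.82 in untreated replicates 1 to 5 at day 1. Every day 3 value was above every day 1 value, and the difference was 1.16 (SE 0.20), 2.23-fold higher, with an adjusted p of 0.0349. That call did not hold in all of the 18 fits that each left out 1 sample. Only leaving out an untreated sample of these days can move the difference. It ran from 1.05 (without untreated day 3 replicate 2) to 1.28 (without untreated day 1 replicate 4). Hsp68 had a difference of 1.17 (SE 0.24), 2.26-fold higher, with an adjusted p of 0.0944. That difference ran from 0.78 (without untreated day 3 replicate 1) to 1.56 (without untreated day 3 replicate 2). The differences were 0.90 (SE 0.27) for Hsp26, 0.72 (SE 0.28) for Hsp27, 0.46 (SE 0.61) for stv, 0.33 (SE 0.11) for DnaJ-1 and 0.14 (SE 0.15) for Hsf. Without untreated day 3 replicate 2 they were -0.107 for stv and -0.155 for Hsf, while those of the other members stayed positive. At day 5 untreated cells were closer to day 1: 0 of 6 members were called, against 0.186% of all probe sets, and the differences ran from -0.07 for stv to 0.25 for DnaJ-1. The day 3 changes with SPS1 dsRNA are set against these higher untreated values. For Hsp26, Hsp68 and the brighter Hsp22/CG4456 probe set, SPS1 dsRNA replicate 1 at day 3, at 8.99, 8.97 and 8.59, was itself above every day 1 sample of either group.

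Copies of Hsp70, the classic heat-induced chaperone, share 5 probe sets, which do not separate them, and 3 of these had means above 5. The probe set named for Hsp70Ba, Hsp70Bb, Hsp70Bbb and Hsp70Bc measured 8.96 and 7.26 in SPS1 dsRNA cells at day 3, against 9.57 and 9.08 in untreated cells. SPS1 dsRNA replicate 2 was the lowest by a wide margin, and the groups did not overlap. The change of -1.22 (SE 0.50) had an adjusted p of 1 in limma and 0.0223 with the block, and was -0.37 without SPS1 dsRNA day 3 replicate 2. The probe set of Hsp70Aa and Hsp70Ab measured 9.52 and 7.11 in SPS1 dsRNA cells at day 3, against 10.10 and 8.88 in untreated cells. Its groups overlapped, and the change of -1.18 (SE 0.57) had an adjusted p of 0.0678 with the block and was 0.03 without SPS1 dsRNA day 3 replicate 2. The probe set of Hsp70Bb and Hsp70Bc had a change of -1.14 (SE 0.47), with an adjusted p of 0.0538 with the block, and -0.26 without SPS1 dsRNA day 3 replicate 2. In untreated cells these 3 probe sets were higher at day 3 than at day 1 by 1.84, 1.88 and 1.80, with adjusted p-values of 0.147, 0.207 and 0.13. At day 5 their changes with SPS1 dsRNA were 0.02, -0.59 and -0.29, none called in either fit. The other 2 probe sets with these names had means of 3.46 and 3.60 and changes between -0.17 and 0.18 on days 3 and 5.

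**Figure D3:**
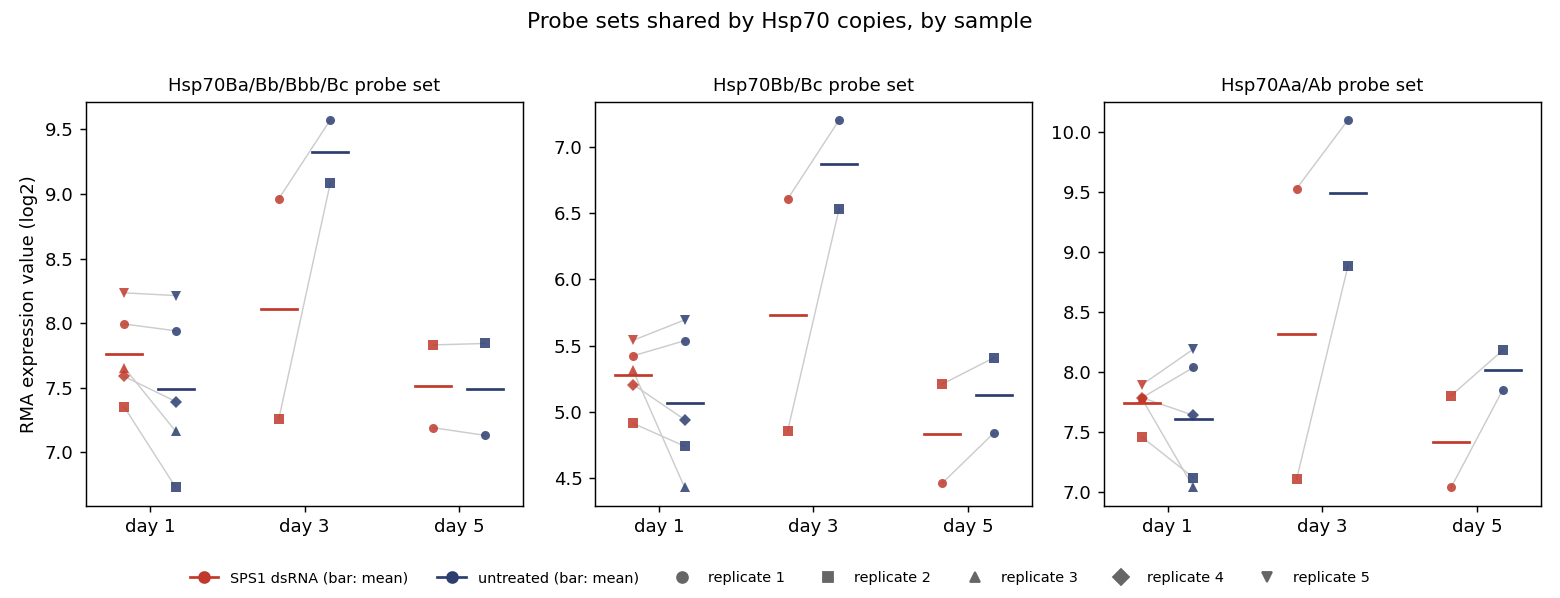
RMA expression value (log2, vertical axis; the scale differs between panels) of each sample on 3 probe sets that copies of Hsp70 share, on days 1, 3 and 5, with SPS1 dsRNA samples in red left of untreated samples in blue, group means as bars and grey lines between samples of the same number. Untreated day 3 samples are the highest group in each panel, and SPS1 dsRNA day 3 replicate 2 is near the day 1 values.

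At day 1, stv and Hsp27 varied more between replicate numbers than between treatments. The gene stv measured 6.45, 4.71, 5.54, 5.10 and 6.63 in SPS1 dsRNA replicates 1 to 5, against 6.70, 4.74, 5.17, 4.99 and 6.76 in untreated replicates 1 to 5. Numbers 1 and 5 were high and number 2 lowest in each group, over a range of 1.91 log2 units in SPS1 dsRNA and 2.01 in untreated cells. Replicate number took 98.3% of the day 1 sum of squares of stv and treatment 0.0102%. Hsp27 measured 8.31, 7.88, 7.67, 7.80 and 8.37 in SPS1 dsRNA replicates 1 to 5, against 8.54, 7.57, 7.39, 7.81 and 8.52 in untreated replicates 1 to 5. Numbers 1 and 5 were again high in each group, and number took 92.2% of the sum of squares. An F-test over the 5 numbers in limma called both, with F of 92.2 and an adjusted p of 0.000168 for stv and F of 19.95 and an adjusted p of 0.00533 for Hsp27. These were 2 of 6 members, against 15.4% of all probe sets (2883), and the calls held under every setting run, including each number left out. Over probe sets with a mean of at least 5, the F-test called 3 of the 6 members and 3646 of all 8201. Such calls were thus common among expressed genes. On the dimmer Hsp22/CG4456 probe set, whose 10 values ran from 4.30 to 5.22, numbers 1 and 5 were also high and number 4 was lowest in each group, with an adjusted p of 0.000992.

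The other members had less of their day 1 spread in the replicate number. Hsp68 had 51.1% of its sum of squares in number and 38.3% in treatment, with an adjusted p of 0.0518. That value was 0.00902 without number 4, 0.0232 after subtracting array medians and 0.0338 over probe sets with a mean of at least 5, but 0.112 without number 3 and 0.263 without number 5. Number took 75.6% for Hsf, 48.7% for DnaJ-1 and 39.2% for Hsp26, with adjusted p-values of 0.246, 0.395 and 0.495. Over all probe sets the median share was 64.4%, and 81.9% over the 6843 with a mean of at least 6. Hsp26, Hsp27 and the brighter Hsp22/CG4456 probe set shared a pattern within numbers: SPS1 dsRNA was above untreated in numbers 2 and 3, by 0.42 and 0.42 for Hsp26, 0.30 and 0.27 for Hsp27 and 0.47 and 0.57 for the shared probe set. In numbers 1, 4 and 5 the difference was between -0.23 and -0.01 for all 3. What the numbers stand for is not given in the labels, so culture, passage and processing cannot be told apart.

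**Figure D4:**
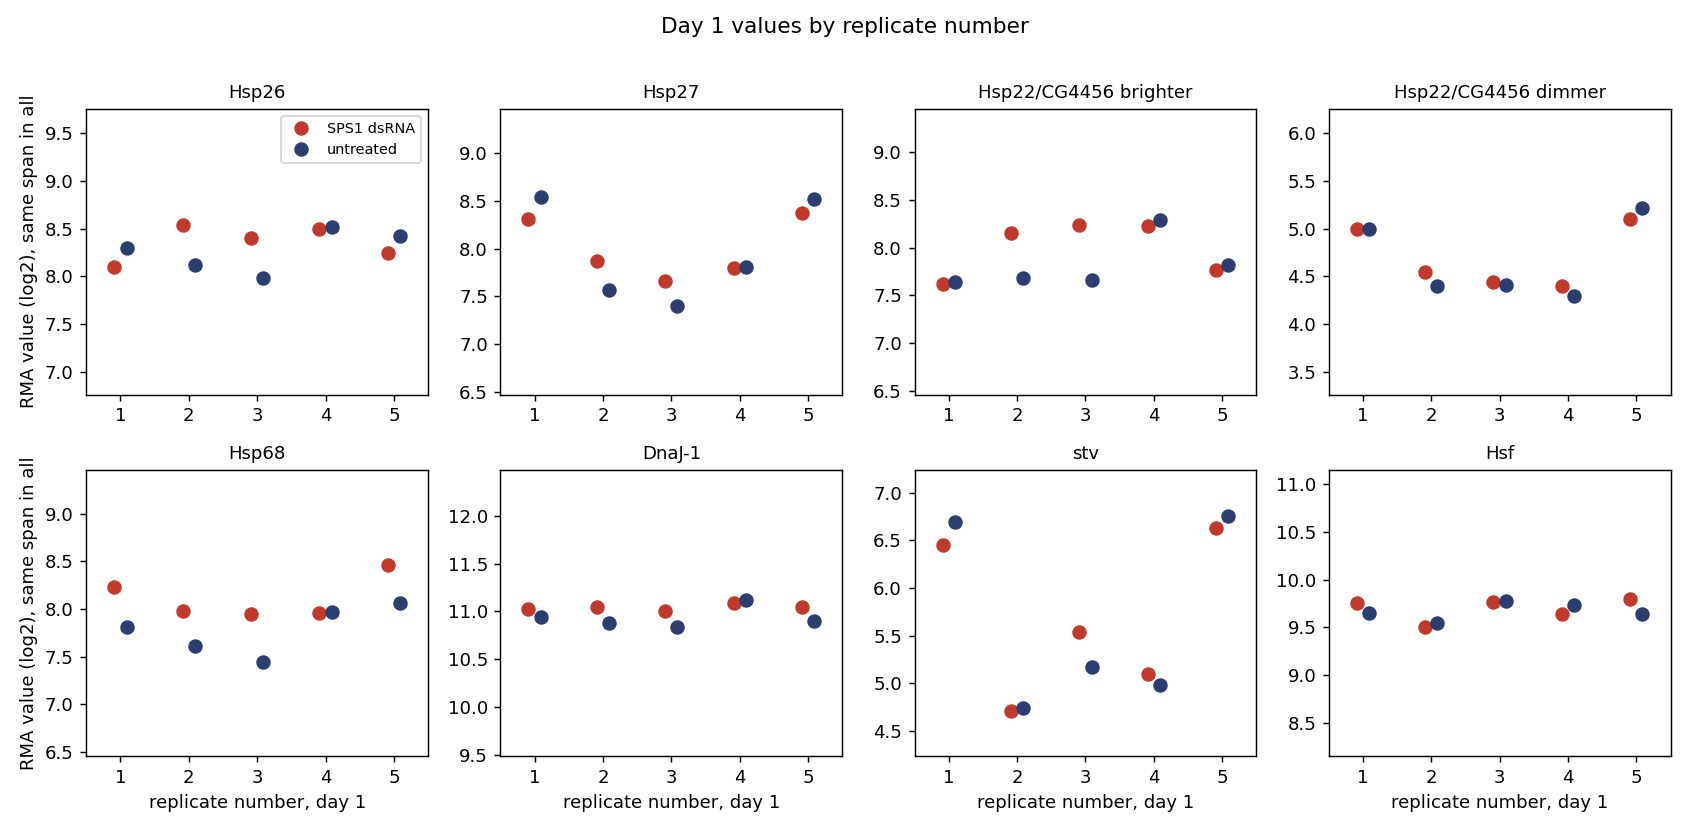
Day 1 RMA value (log2, vertical axis, the same span in every panel) of each member by replicate number, with SPS1 dsRNA in red left of untreated in blue. Both groups move together across numbers for stv, Hsp27 and the dimmer Hsp22/CG4456 probe set, while DnaJ-1 and Hsf stay within a narrow band.

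Hsp26 and Hsp27 lie in 1 cluster with Hsp67Bc, CG4456, Hsp22, CG4461, Hsp67Ba and Hsp23, in the gene order of the RefSeq table of the Release 6 assembly. Inside the cluster the other gene with a probe set of its own was CG4461, which had a mean of 5.43 and changes of 0.03, 0.05 and -0.05 on days 1, 3 and 5. The 3 neighbours before the cluster, mRRF1, CG4452 and Fdx1, had day 3 changes of 0.11, 0.10 and 0.02. The protein-coding gene after it, CG4080, had a day 3 change of -0.34 (SE 0.46) and an adjusted p of 0.00226 for the replicate numbers at day 1. None of the 5 measured neighbours passed the test at day 3, and their difference from Hsp26 and Hsp27 was not tested.

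Other chaperone genes were examined as lists. At day 3, 0 of 62 measured genes passed in limma and 1 (Csp) passed with the block, while 6 passed in limma at day 5. Among 17 measured Hsp90 co-chaperones and J proteins, 2 fell and 1 rose at day 5, beside 2.79% of all probe sets called, with a list median of -0.07 that was 0.0088 after cyclic loess. Fkbp59, an immunophilin that binds Hsp90, measured 10.32 and 10.36 in SPS1 dsRNA cells at day 5, against 11.15 and 11.03 in untreated cells. These groups were far apart relative to their spread, and the fall of -0.75 (SE 0.12) had an adjusted p of 0.00109. Csp, the cysteine string J protein of synaptic vesicles, fell by 0.72 (SE 0.12, adjusted p of 0.00255). It was also lower at day 3, at -0.51 (SE 0.12), with an adjusted p of 0.209 in limma and 0.0145 with the block. DnaJ-H, a J protein gene like DnaJ-1, rose by 0.72 (SE 0.16, adjusted p of 0.0174), the opposite direction to the -0.44 of DnaJ-1. Without SPS1 dsRNA day 5 replicate 1 the day 5 change was -0.555 for Csp and 0.60 for DnaJ-H. It was 0.61 for DnaJ-H without untreated day 5 replicate 2. The block called 2 higher and 6 lower of the 17, beside 12.2% of all probe sets called. Besides Fkbp59, Csp and DnaJ-H, these were jdp (0.72), Stip1 (-0.28), CG1416 (-0.28), shu (-0.38) and Roe1 (-0.38). For jdp the brightest of 3 probe sets was used.

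Of 14 genes of the cytosolic chaperonin, the ring that folds actin and tubulin, and of prefoldin, which hands them to it, 3 fell at day 5, beside 2.79% of all probe sets called. All 14 had a negative change at day 5, as did 14 at day 1 (12 after cyclic loess) and 13 at day 3. Of the probe sets with a mean of at least 6, 48.7% were lower at day 1, 56.2% at day 3 and 62.7% at day 5. The list median was -0.03 at day 1, -0.12 at day 3 and -0.28 at day 5 (-0.24 after cyclic loess and -0.35 after subtracting array medians). Over those probe sets the median was 0.0014 at day 1, -0.02 at day 3 and -0.08 at day 5. The 3 were the prefoldin subunits Pfdn1 at -0.68 (SE 0.14, adjusted p of 0.00857), Pfdn6 at -0.57 (SE 0.13, adjusted p of 0.019) and Pfdn4 at -0.49 (SE 0.12, adjusted p of 0.0387). The block called 7 of the 14, beside 12.2% of all probe sets: Pfdn1, Pfdn2, Pfdn4, Pfdn5, Pfdn6, mgr (a further prefoldin subunit) and CCT4, all lower. The 3 calls without the block rest on 2 samples a group, so they depend on single libraries. With 1 day 5 sample left out, the change of Pfdn1 ran from -0.80 to -0.56. Pfdn6 ran from -0.65 to -0.49 and Pfdn4 from -0.59 to -0.38. Pfdn4 had an adjusted p of 0.0523 without SPS1 dsRNA day 1 replicate 3 and 0.0535 without replicate 4. After cyclic loess Pfdn6 had 0.0868 and Pfdn4 0.147.

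No entry passed without the block on any day among 6 measured Hsp70 family genes and 8 further small heat shock and Hsp60 genes. Nor did any of 10 genes listed as ER chaperones or of 9 further stress genes. Their day 5 medians were -0.12, -0.04, -0.04 and 0.13. In the Hsp70 family the day 5 change was -0.26 (SE 0.09) for Hsc70-5, the mitochondrial member, with an adjusted p of 0.173 in limma and 0.0351 with the block. It was -0.22 for Hsp110, a nucleotide exchange factor also known as Hsc70Cb, and -0.20 for Hsc70-4, the main constitutive form. Of the small heat shock genes outside the cluster, l(2)efl had a change of 0.47 (SE 0.43) on the brightest of its 3 probe sets. Its adjusted p was 0.758 in limma and 0.0342 with the block. The next largest of that list were -0.18 for CG13133 and -0.15 for Hsp60C, a mitochondrial chaperonin gene. These had low means, of 4.33 and 3.44. Sil1, an exchange factor for the ER chaperone BiP, had -0.43 (SE 0.12), with 0.0772 in limma and 0.00301 with the block. It was followed in the ER list by Hsp110, which is also counted in the Hsp70 family. Herp, with a mean of only 3.85, had -0.16. Gadd45, a stress gene of DNA damage and growth arrest, had 0.88 (SE 0.24), with 0.0611 in limma and 0.00386 with the block, and MtnA, a metallothionein gene, had -0.58 (SE 0.65), with 0.823 in limma and 0.0149 with the block. Atg1, a kinase that starts autophagy, had 0.25 (SE 0.16). Beside these day 5 changes, 3 of the 12 plasmatocyte markers rose in limma, where 2.79% of all probe sets were called. They were eater (3.28), Pxn (2.35) and drpr (1.20), with adjusted p-values of 0.000179, 0.000149 and 0.0475. The block called 5 higher, with Hml (0.93) and Col4a1 (0.41) added, beside 12.2% of all probe sets. The list median was 0.34, and Ppn (-0.39), crq (-0.22) and Sr-CI (-0.01) had negative changes while the others had positive ones. The mean over the 12 was 6.29 to 6.68 in SPS1 dsRNA cells at day 5, against 5.73 to 5.84 in untreated cells. Of 4 lamellocyte markers, with a median change of -0.37, limma called 0 at day 5. The block called 2 of them lower, PPO3 (-0.99) and mys (-0.29). Neither fit called any of 4 crystal cell markers. The part of these markers in the members' day 5 changes was not tested. Fewer cells of a type and less RNA per cell cannot be told apart in such samples.

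**Figure D5:**
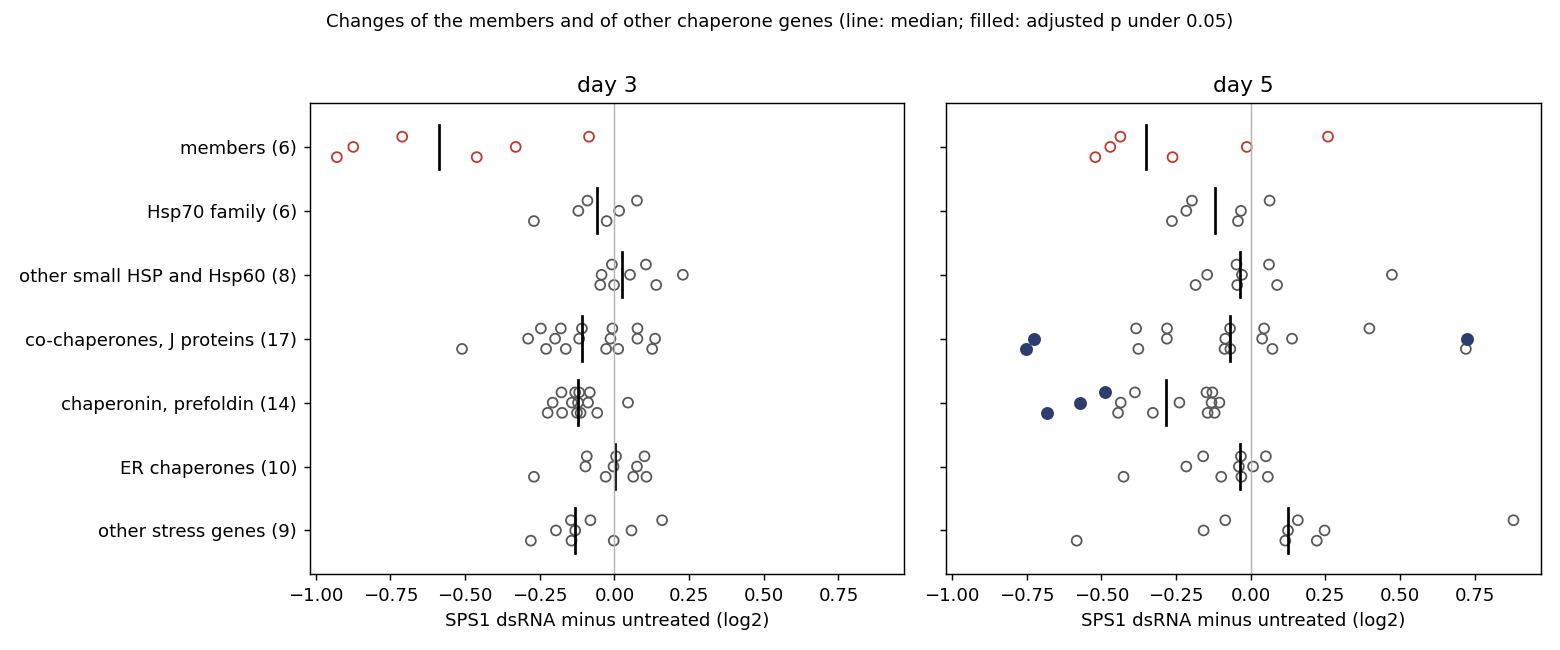
Change in log2 expression (SPS1 dsRNA minus untreated, horizontal axis) at days 3 and 5 for the 6 measured members in red and for 6 lists of other chaperone and stress genes, with the number measured in brackets and the list median as a line. Filled points passed an adjusted p of 0.05 in limma without the block, and these are Fkbp59, Csp, DnaJ-H, Pfdn1, Pfdn4 and Pfdn6, all at day 5.

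As a description of shared patterns, the named genes closest to Hsp26, Hsp27 and stv were sought by Pearson's r over the 18 samples, among 5607 genes with a mean of at least 6. These samples share replicate numbers, days and treatments, and the genes were chosen for their high r. For stv the closest were Gdap2 (r 0.95, Spearman's rho 0.85), egh (r 0.94, rho 0.93) and Fhos (r 0.93, rho 0.93). For Hsp27 they were M7BP (r 0.88, rho 0.87), ScsbetaA (r 0.86, rho 0.89) and cher (r 0.86, rho 0.88), and for Hsp26 Afg3l2 (r 0.86, rho 0.77), lama (r 0.83, rho 0.69) and Mocs1 (r 0.82, rho 0.61). Without the 2 samples farthest from the median of the member, r was 0.90 to 0.93 for stv, 0.84 to 0.92 for Hsp27 and 0.61 to 0.79 for Hsp26. The likeness to Hsp26 was the weakest of the 3 and rested in part on those samples.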

How the data were processed

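The deposited table holds log2 values made by the authors with RMA, per the submitters' processing notes, with version and probe definition not given in the sources used here. Its 20 columns run from 2.475 to 14.359 and were used as deposited. Of 18952 probe sets, 183 controls were dropped and the other 18769 tested, of which 13647 had 1 gene symbol, 402 several and 4720 none in the platform annotation. Entrez identifiers of 13544 matched the RefSeq gene table. Averaging each technical array with biological replicate 2 of its group left 18 samples. The root mean square difference of the technical array was 0.196 to replicate 2 and 0.314 to replicate 1 in SPS1 dsRNA cells, and 0.226 and 0.305 in untreated cells.

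One linear model of the 6 groups was fitted with limma 3.58.1 (R 4.3.3). It had 12 residual degrees of freedom, to which the empirical Bayes step added 4.26, with Benjamini-Hochberg adjustment over all 18769 probe sets and a threshold of 0.05. Because groups share 1 estimate of the spread, days 3 and 5 borrow most of it from day 1. Over probe sets with a mean of at least 6, day 1 samples lay 0.182 to 0.26 (root mean square) from their group. The distance was 0.375 and 0.405 at day 3, and 0.284 and 0.408 at day 5. On those days it is to a single sample, which by itself makes it larger. If the spread is larger on those days, the shared SEs are too small there. Leaving out a sample or pair of those days leaves 1 in its group, which adds nothing to the spread. For such fits changes are given rather than p-values. With each day fitted alone, 0 probe sets were called at day 3 and 81 at day 5. The deviations of same-numbered samples from their group means correlated at r of 0.689 to 0.838 in the 5 day 1 pairs, and at 0.782 and 0.712 at days 3 and 5 (1 value a day, as 2 samples a group fix it), over probe sets with a mean of at least 6. This pairing comes from the data, not the labels. The fit with day and number as a block has 6 residual and 5.41 prior degrees of freedom, and is given where it changes a call or moves a count by over 1.5 times.

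The members and gene lists were chosen with earlier results of these data known. Named genes are all members, other listed genes called on any day, the 3 with the largest absolute day 5 change of each list, and the 3 most similar genes by r; further genes are named where the block called them. Markers of crystal cells (1 of 4 at a mean of at least 6, PPO2), lamellocytes (2 of 4, mys and PPO3), neurons (1 of 4, elav), muscle (0 of 4) and fat body (0 of 4) were also read in untreated cells. The models were tested on simulated data. Sequences are not printed, because no sequence table was at hand, and coordinates are not printed either.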

Additional observations from a re-analysis of the deposited data

Results flagged for a closer look

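The brighter probe set shared by Hsp22 and CG4456 measured 8.29 in the library labelled untreated day 1 replicate 4, apart from the other 4 untreated day 1 samples, the nearest of which measured 7.82. It was marked because its gap to the nearest sample is large for a group of 5, in 1 of 16 groups examined, and chance marks about 1 in 20. This is the library that went against its label at the unnamed probe set, and without it the day 1 change of the probe set was 0.30 rather than 0.18.

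The change of Hsp27 at day 5 exceeded that at day 3 by 0.97 log2 units. It was marked because SPS1 dsRNA was below untreated in both day 3 pairs and above it in both day 5 pairs. The test of that difference gave an adjusted p of 1 in limma and 0.0364 with replicate number as a block.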

How the results depend on the processing

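Of 6 counts of members over the alternatives run, 125 values were within 1.5 times the count without the block and 21 moved. Of the single changes, 849 kept their direction and side of the threshold, 33 passed it, 6 no longer did and 37 changed sign. These tallies do not measure stability. A change is the same by construction in the block and in fits without a sample of other groups. Some tallied fits had 1 sample in a group. With the replicate block, 2 members were called at day 3, 1 at day 5 and 3 differed between days; it changed no other count of members. The block's counts at days 3 and 5 were 0 and 1 after cyclic loess and 3 and 2 after subtracting array medians. They were 3 and 1 without the technical arrays (these alternatives were chosen after seeing the data). Averaging the technical arrays with replicate 1 instead called 1 member at day 3 (Hsp26 at -1.14, adjusted p of 0.0158). Fits that each left out 1 sample were run as well. At days 3 and 5 these leave 1 sample in a group, so their counts of calls are not given. Changes that turned sign in those fits ran, at day 1, from -0.11 to 0.18 (Hsp27), -0.22 to 0.29 (stv), -0.0091 to 0.069 (Hsf) and -0.073 to 0.17 (dimmer Hsp22/CG4456); at day 3, from -0.38 to 0.21 (Hsf) and -0.94 to 0.022 (Hsp68); at day 5, from -0.16 to 0.14 (Hsp68), -1.14 to 0.20 (stv) and -0.10 to 0.17 (brighter Hsp22/CG4456); and between untreated day 3 and day 1, from -0.15 to 0.13 (dimmer), -0.11 to 1.02 (stv) and -0.16 to 0.43 (Hsf). Day 5 Hsp68 was 0.076 after cyclic loess, with and without the block, and 0.033 with the block without day 5 pair 2; the brighter Hsp22/CG4456 probe set was -0.036 after subtracting array medians, with and without the block, and -0.18 with the block without day 5 pair 2; day 3 Hsf was 0.045 with the block without day 3 pair 2. The causes were not tested. Over all probe sets, 33 were called at day 3 and 523 at day 5 (224 higher, 299 lower), against 234 and 2293 with the block, 0 and 81 with each day fitted alone, and 72 at day 3 with the technical arrays moved to replicate 1. Of the day 5 calls 153 of 478 were higher after subtracting array medians and 280 of 542 after cyclic loess. With 2 samples a group at days 3 and 5, 1 sample decides several of these values, and signal near background limits stv and the dimmer probe set.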
